A study of Homo sapiens with 6 samples.

Results

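A group of 10 genes of the cell's intermediate filament skeleton, nuclear envelope and epithelial adhesion was followed in the proB leukemia cell line SEM. They are the keratin genes KRT1, KRT8, KRT10, KRT18 and KRT19, the vimentin gene VIM, the lamin genes LMNA and LMNB1, and the adhesion genes EPCAM and CDH1. They were chosen by gene symbol, and all 10 are among the 35410 genes of the deposited count table. SEM is an established human cell line with the KMT2A::AFF1 fusion. Expression was measured by MACE-Seq, which sequences the 3′ ends of polyadenylated transcripts, in 6 libraries, with 3 biological replicates for each of 2 lines, SEM::mock and SEM::EGR3. SEM::mock carries the empty inducible vector, SEM::EGR3 carries the vector with EGR3, and both were harvested 48 h after 1 µg/mL doxycycline, so that the controls received the drug as well. Each arm is a single engineered line, and the replicates measure the spread within that line and not between independently made lines.

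Intermediate filaments are rope-like polymers of coiled-coil proteins. Keratins form obligate pairs of a type I and a type II chain and are typical of epithelia, KRT8 with KRT18 and KRT19 in simple epithelia and KRT1 with KRT10 in the upper epidermis. Vimentin is the filament protein of mesenchymal cells and of most leukocytes, and lamins line the inner face of the nuclear envelope, with LMNB1 made in nearly all nucleated cells and LMNA rising with differentiation. EPCAM and the cadherin CDH1 are cell adhesion proteins of epithelial surfaces.

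The counts of all genes summed to 5286115 to 6181388 per SEM::mock library and 7293092 to 15106018 per SEM::EGR3 library, so low values are known less well in SEM::mock. Levels are given as CPM, counts per 1000000 listed counts after TMM normalization. EGR3 itself was counted 8, 10 and 6 times in the SEM::mock libraries and 9768, 4952 and 5557 times in the SEM::EGR3 libraries, in the direction of the labels. The label of the line was also checked against markers of B precursor leukemia, and here the libraries labelled SEM::mock stood apart. FLT3, a receptor kinase high in KMT2A-rearranged leukemia, was counted 1, 0 and 4 times in the SEM::mock libraries and 4998, 2285 and 2961 times in those of SEM::EGR3. PROM1 had 0, 0 and 1 counts against 2586, 1209 and 1418, and CD79A had 1, 3 and 3 against 764, 412 and 468. The 10 markers of that list summed to 46.8 to 52.7 CPM in SEM::mock and 721 to 747 CPM in SEM::EGR3. HOXA9, a target of KMT2A fusions, was counted 1, 2 and 3 times in SEM::mock against 825, 360 and 491 times, and CDKN2A had none in SEM::mock against 2356, 1127 and 1357. Its neighbour MTAP had 0, 0 and 1 counts against 380, 182 and 214. Of the 8 tested markers of the first list 7 were higher in SEM::EGR3, and PTPRC, the pan-leukocyte CD45 gene, was lower, with a log2 fold change of -0.54. PTPRC passed narrowly (edgeR adjusted p = 0.0419), and its CPM overlapped between the lines. Its counts were 28, 21 and 30 in SEM::mock and 49, 27 and 28 in SEM::EGR3. Globin genes, which are typical of red cell precursors, were abundant in both lines, with a sum over 8 genes of 3895 to 4181 CPM in SEM::mock and 5575 to 5838 CPM in SEM::EGR3. The sum hides opposite directions, since 3 of the 6 tested globin genes were higher in SEM::EGR3 and 3 were lower. HOXA9, CDKN2A, MTAP and the globin genes were added to the marker check after values were known. The libraries labelled SEM::mock thus have several defining markers of the line they are labelled as at or near 0. Whether they come from the same parental cells as SEM::EGR3 was not tested, and a difference between the cells of the 2 lines cannot be told apart from the effect of EGR3 in any result below.

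Of the 10 genes, 8 passed the filter on low counts, and all 8 differed between the lines (quasi-likelihood test of edgeR, adjusted by Benjamini-Hochberg over 15465 tested genes). KRT18, VIM, EPCAM, KRT19, LMNA, KRT10 and KRT8 were lower in SEM::EGR3, and LMNB1 was higher. The background is wide, since 32.0% of all tested genes were lower and 36.5% were higher, and 70.2% had no overlap between the libraries of the 2 lines. Lower by at least 1 on the log2 scale were 4 of the 8, against 8.50% of all tested genes. The median log2 fold change of the 8 genes was -1.21, and that of all tested genes was 0.03. The 8 genes passed the filter on counts that were high in both lines, from 113 counts upward in every library, so none of them was tested only because of the higher line. KRT1 and CDH1 did not pass and are described separately.

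**Figure D1:**
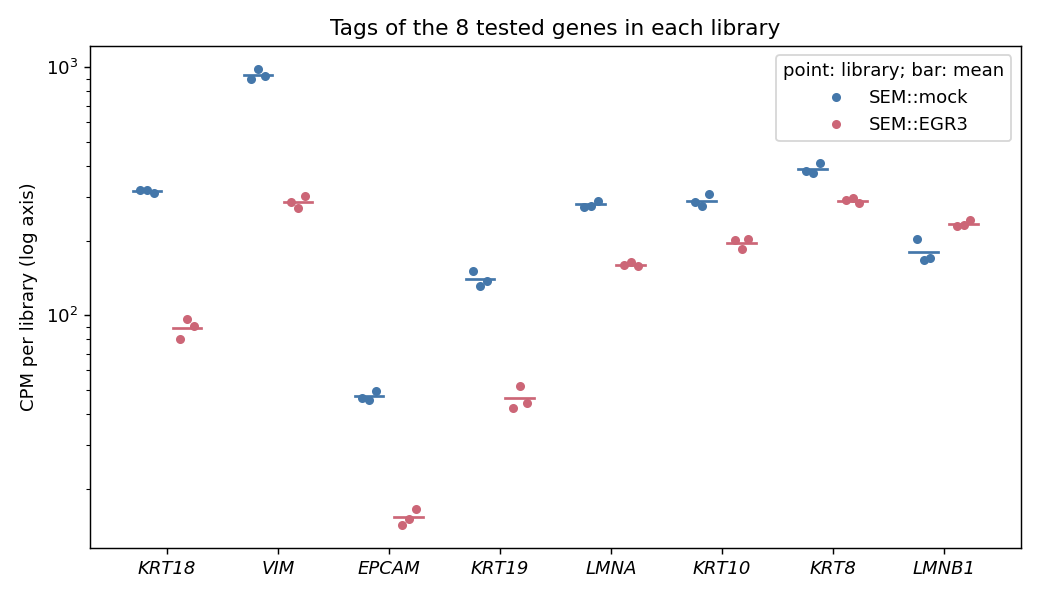
CPM of the 8 tested genes on a log axis, with 1 point per library and a bar at the mean of 3 libraries of SEM::mock (blue) and SEM::EGR3 (red). The points of the 2 lines do not overlap for any of the 8 genes, and only those of LMNB1 are higher in SEM::EGR3.

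KRT18, the type I partner of KRT8 (chromosome 12, positions 52948871 to 52952901 of GRCh38, plus strand), differed most. Its levels were 321, 319 and 312 CPM in SEM::mock and 80.5, 96.3 and 90.9 CPM in SEM::EGR3. All 3 SEM::mock libraries lay within a narrow band that is far above the SEM::EGR3 libraries. The means were 317 ± 4.52 and 89.2 ± 7.98 CPM (SD, n = 3 each), a 3.58-fold lower level, with a log2 fold change of -1.84 (SE 0.06, edgeR adjusted p = 1.95e-18). In libraries made from whole cultures, fewer cells with a transcript and less of it per cell cannot be told apart. A lower log2 fold change was found for 2.04% of all tested genes.

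KRT18 has many processed copies in the genome, and 57 rows of the table are named as its pseudogenes. Their counts summed to 43.7% to 51.6% of the KRT18 count in every library, and 6 of them passed the filter. All 6 were lower in SEM::EGR3, with log2 fold changes from -2.08 to -1.77. KRT18P11 on chromosome X was counted 225, 222 and 228 times in the SEM::mock libraries and 169, 84 and 98 times in the SEM::EGR3 libraries, a log2 fold change of -1.88. KRT18P17 on chromosome 3 had 58, 58 and 49 counts against 43, 24 and 25, a log2 fold change of -1.77. The last 60 coding bases of KRT18 (chr12:52952780-52952839, plus strand, GRCh38) are shown with the same stretch of these copies, as examples of close copies that a tag from there would have to tell apart. Capitals mark bases that differ from KRT18, of which KRT18P11 has 3 and KRT18P17 has 2. In the same stretch, compared without gaps, KRT18P39 has 6 and KRT18P13 has 22. Of the last 300 bases of the KRT18 transcript, 78.0% were matched by identical bases of KRT18P11 in a local alignment and 73.7% by KRT18P17. Bases left outside the alignment were counted as not identical. These shares therefore cannot be set against those of the 60 bases. The sequences are from GENCODE.
KRT18: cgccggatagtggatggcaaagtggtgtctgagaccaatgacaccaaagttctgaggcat
KRT18P11: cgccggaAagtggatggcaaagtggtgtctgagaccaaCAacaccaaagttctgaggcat
KRT18P17: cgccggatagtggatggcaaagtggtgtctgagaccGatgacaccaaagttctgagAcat

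Reads of KRT18 and of these copies may therefore have been split in counting, and the copies' own expression is uncertain. The sum of KRT18 and its 57 copies fell by 1.84 on the log2 scale (log2 ratio of the mean CPM), from 458 to 480 CPM in SEM::mock to 122 to 141 CPM in SEM::EGR3, so the size of the difference is the same with the copies added. KRT8 has 27 such rows, which held 0.903% to 1.56% of the KRT8 count, and KRT19 has 4, which held at most 1.54%.

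**Figure D2:**
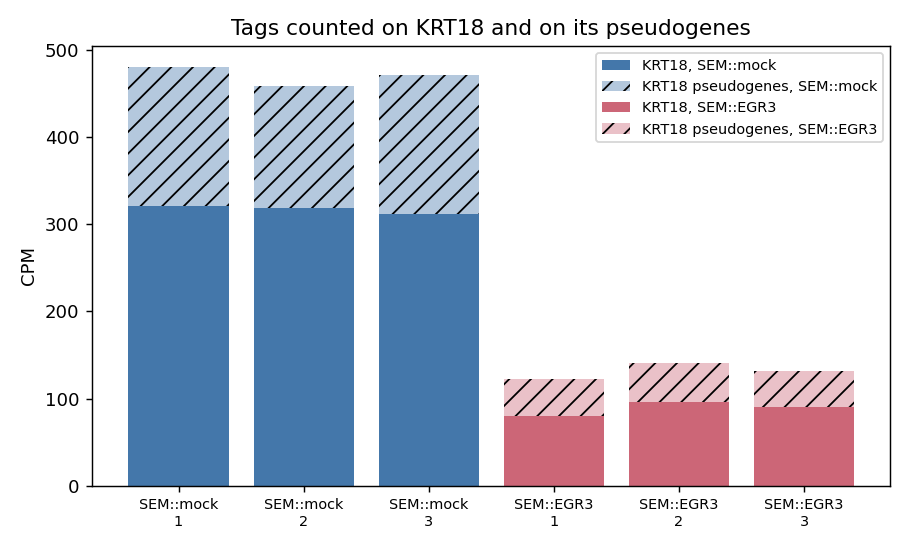
CPM counted on KRT18 (solid) and, stacked on it, on its 57 pseudogenes (hatched) in each of the 3 SEM::mock (blue) and 3 SEM::EGR3 (red) libraries. Both portions are smaller in all 3 SEM::EGR3 libraries, where the stacked total is 122 to 141 CPM.

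KRT8, the type II partner of KRT18 (chromosome 12, positions 52897187 to 52949954, minus strand), differed least among the genes that were lower. It had 380, 374 and 411 CPM in SEM::mock and 291, 297 and 283 CPM in SEM::EGR3. The groups did not overlap, with means of 389 ± 20.05 and 290.0 ± 7.02 CPM (SD, n = 3 each), a 1.34-fold lower level and a log2 fold change of -0.42 (SE 0.05, edgeR adjusted p = 1.72e-07). The annotated spans of KRT8 and KRT18 overlap by 1084 bases on opposite strands, at the start of each gene. The strand setting of the counting is not given in the sources used here, so reads from the shared bases cannot be assigned.

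The pair partners thus differed to unequal degrees. The KRT18 count divided by the KRT8 count of the same library was 0.844, 0.852 and 0.759 in SEM::mock and 0.277, 0.324 and 0.321 in SEM::EGR3. This ratio does not depend on library scaling, and it was lower in 3 of 3 SEM::EGR3 libraries. An exact permutation test of the 3 and 3 ratios gave a two-sided p = 0.1, which is the smallest p that this design allows. The ratios given here were chosen after values were known.

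KRT19, the smallest type I keratin (chromosome 17, positions 41523617 to 41528308, minus strand), had 151, 131 and 138 CPM in SEM::mock and 42.5, 52.2 and 44.2 CPM in SEM::EGR3. Its lowest SEM::mock library was above its highest SEM::EGR3 library by more than the spread within either line. The means were 140 ± 10.3 and 46.3 ± 5.15 CPM (SD, n = 3 each), a 3.05-fold lower level and a log2 fold change of -1.61 (SE 0.07, edgeR adjusted p = 1.08e-15). The KRT18 count divided by the KRT19 count of the same library was 2.27 ± 0.157 in SEM::mock and 1.93 ± 0.109 in SEM::EGR3 (SD, n = 3 each). The ratios did not overlap (two-sided exact permutation p = 0.1).

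KRT10, the type I keratin of the suprabasal epidermis (chromosome 17, positions 40818117 to 40822595, minus strand), had 285, 276 and 310 CPM in SEM::mock and 201, 185 and 203 CPM in SEM::EGR3. All SEM::EGR3 libraries were lower, by 1.47-fold in the mean, with a log2 fold change of -0.56 (SE 0.06, edgeR adjusted p = 5.19e-09). KRT10 overlaps TMEM99 on the opposite strand, whose log2 fold change of 0.14 did not pass the test.

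KRT1, the type II partner of KRT10 (chromosome 12, positions 52674736 to 52680407, minus strand), had no count in any SEM::mock library and 16, 10 and 6 counts in SEM::EGR3. The SEM::EGR3 mean of 1.01 ± 0.341 CPM (SD, n = 3) lay at least 1.87-fold higher than a floor of 3 counts per SEM::mock library. This floor accounts for counting error alone. KRT1 fell below the filter. Without the filter KRT1 was called higher (edgeR adjusted p = 7.05e-06). That call rests on the SEM::EGR3 counts alone and is a description. KRT10 was therefore counted at 185 CPM or more in every library while its partner was at 1.34 CPM or less.

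Vimentin was the most abundant of the 10 genes in SEM::mock. VIM (chromosome 10, positions 17228259 to 17237593, plus strand) had 893, 986 and 922 CPM in SEM::mock and 287, 270 and 303 CPM in SEM::EGR3. No library of one line came near those of the other. The means were 933 ± 47.5 and 287 ± 16.4 CPM (SD, n = 3 each), a 3.25-fold lower level and a log2 fold change of -1.70 (SE 0.06, edgeR adjusted p = 1.14e-18). The antisense gene VIM-AS1 lies across the VIM start and was counted 45, 42 and 38 times in the SEM::mock libraries and 51, 24 and 22 times in the SEM::EGR3 libraries, a log2 fold change of -1.30 (edgeR adjusted p = 3.08e-06). The 2 genes share only bases at their starts, and each ends outside the other. Without a stated strand setting, reads from the bases that both span cannot be assigned.

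EPCAM (chromosome 2, positions 47345158 to 47387601, plus strand) had 46.3, 45.4 and 49.6 CPM in SEM::mock and 14.3, 15.2 and 16.6 CPM in SEM::EGR3. Levels were 3.08-fold lower in SEM::EGR3, with a log2 fold change of -1.62 (SE 0.09, edgeR adjusted p = 5.77e-14). KRT18, VIM, EPCAM and KRT19 had the largest differences of the 10 genes, and their 95% intervals overlapped, from -1.97 to -1.71 for KRT18 to -1.76 to -1.46 for KRT19. Overlapping intervals do not decide the order among these 4. The KRT18 to KRT19 count ratio given above was lower in all SEM::EGR3 libraries (two-sided exact permutation p = 0.1). LMNA followed with an interval from -0.91 to -0.69 that lies below that of KRT10 (-0.68 to -0.44), while the intervals of KRT10 and KRT8 (-0.53 to -0.31) overlapped. CDH1, which encodes E-cadherin (chromosome 16, positions 68737225 to 68835548, plus strand), was counted 1, 0 and 0 times in the SEM::mock libraries and 3, 0 and 0 times in the SEM::EGR3 libraries, at the detection limit in both lines, so no fold is given.

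The lamin genes differed in opposite directions. LMNA, which encodes lamins A and C (chromosome 1, positions 156082573 to 156140089, plus strand), had 273, 276 and 290.0 CPM in SEM::mock and 159, 164 and 158 CPM in SEM::EGR3. It was 1.75-fold lower in SEM::EGR3, with a log2 fold change of -0.80 (SE 0.05, edgeR adjusted p = 1.35e-12). LMNB1, the lamin B1 gene (chromosome 5, positions 126776623 to 126837020, plus strand), had 203, 167 and 171 CPM in SEM::mock and 229, 230.5 and 242 CPM in SEM::EGR3.

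Replicate 1 of SEM::mock was the closest to the SEM::EGR3 libraries for LMNB1, and the groups still did not overlap. The means were 181 ± 19.9 and 234 ± 7.16 CPM (SD, n = 3 each), a 1.30-fold higher level and a log2 fold change of 0.37 (SE 0.06, edgeR adjusted p = 1.39e-05). Within a library, LMNB1 had 0.744, 0.605 and 0.590 counts per LMNA count in SEM::mock and 1.44, 1.41 and 1.54 in SEM::EGR3. Lamin B1 tags were thus fewer than lamin A/C tags in all SEM::mock libraries and more numerous in all SEM::EGR3 libraries (two-sided exact permutation p = 0.1).

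**Figure D3:**
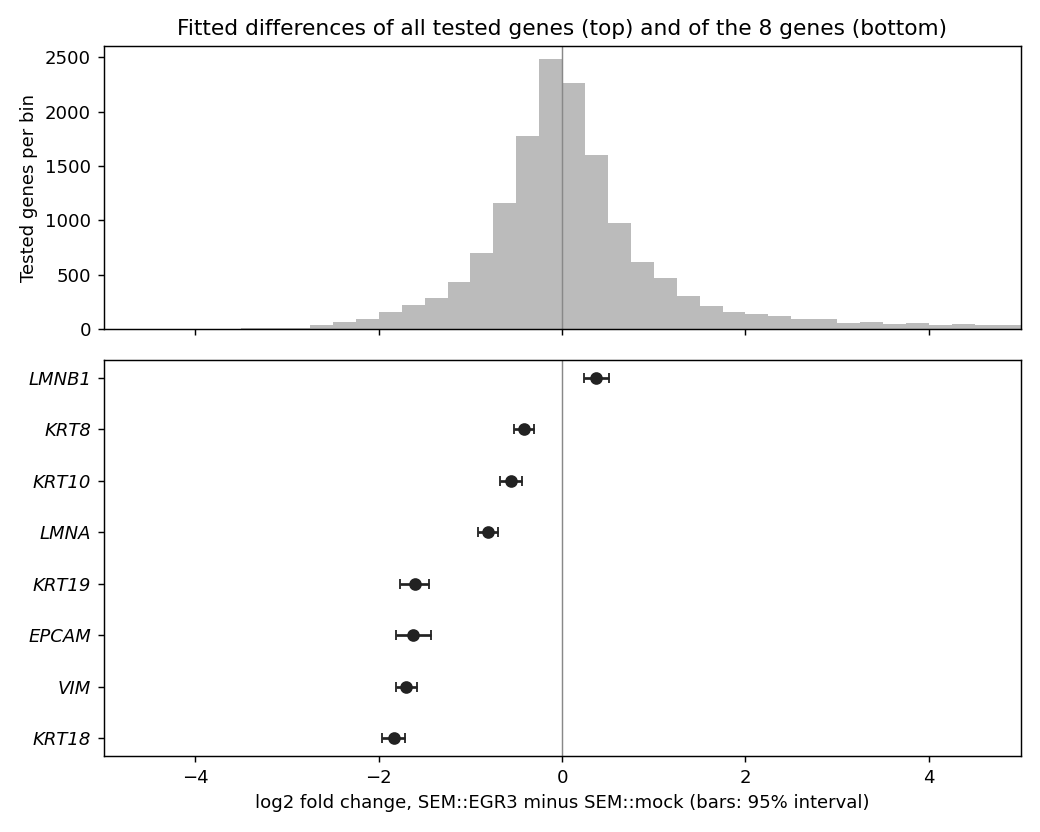
Top, number of tested genes per bin of 0.25 log2 fold change from -5 to 5 over all tested genes. Bottom, log2 fold change of SEM::EGR3 against SEM::mock for the 8 tested genes, with 95% intervals. KRT18, VIM, EPCAM and KRT19 lie together below -1, KRT8, KRT10 and LMNA lie between -1 and 0, and LMNB1 lies above 0.

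Promoter windows of 300 bases (250 before and 50 after the start, RefSeq, GRCh38.p14) were found for VIM, LMNA, LMNB1, KRT8 and KRT10. VIM and one of the LMNB1 windows are shown as examples of a lower and a higher gene. Capitals mark the GC box GGGCGG on either strand, a motif held by 45.0% of 35116 promoter windows, with 1 match in VIM, 4 in the LMNB1 window shown and 0 in the other LMNB1 window.
VIM (chr10:17227991-17228290, plus strand): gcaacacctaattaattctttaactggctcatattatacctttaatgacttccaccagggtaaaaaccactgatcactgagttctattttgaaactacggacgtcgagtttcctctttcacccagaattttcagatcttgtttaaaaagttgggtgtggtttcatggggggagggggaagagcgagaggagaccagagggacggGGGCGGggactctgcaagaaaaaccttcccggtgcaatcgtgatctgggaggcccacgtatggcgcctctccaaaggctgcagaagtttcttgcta
LMNB1 (chr5:126776886-126777185, plus strand): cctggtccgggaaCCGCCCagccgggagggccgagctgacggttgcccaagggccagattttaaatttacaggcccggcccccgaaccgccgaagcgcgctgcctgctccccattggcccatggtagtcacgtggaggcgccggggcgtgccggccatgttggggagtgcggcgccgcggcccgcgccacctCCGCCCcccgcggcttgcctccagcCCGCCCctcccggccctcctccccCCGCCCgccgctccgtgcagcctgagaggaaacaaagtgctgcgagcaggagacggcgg

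The letters GCGTGGGCG and GCGGGGGCG, which are forms of the EGR family motif, were searched on both strands. They are in 0.795% and 5.07% of all windows and had 0 matches in any window of these 5 genes. That says only that these letters are not in these windows. KRT10 had 1 match to TATAAA, which 11.5% of windows hold.

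Other keratin genes were near the detection limit in SEM::mock, and the few that passed the filter were higher in SEM::EGR3. Of 50 other keratin genes searched by name, 27 are in the table, 25 of these had 3 counts or fewer in every SEM::mock library, and 5 passed the filter. All 5 were higher in SEM::EGR3, where the share of all tested genes that was higher was 36.5%. They passed only through the SEM::EGR3 libraries, so this count is a description. KRT17, a type I keratin of basal and stressed epidermis, rose from 5, 3 and 6 counts to 834, 336 and 414. Its fitted log2 fold change of 5.84 (SE 0.20) is likewise a description. KRT86, a type II hair keratin, was absent from the SEM::mock counts and reached 182, 98 and 110 in the SEM::EGR3 libraries, at least 22.9-fold higher than the floor.

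KRT9, the type I keratin of palms and soles, had none in SEM::mock and 77, 43 and 61 in the other line, at least 10.8-fold higher. KRT14, which basal keratinocytes make, had none against 53, 23 and 41, at least 6.81-fold higher. The median of the 4 tested type I genes was 6.87 as fitted and 3.86 with genes at the floor set to their bound. KRT14, KRT16 and KRT17 are close paralogs, as are KRT81 and KRT86, and reads may have been split among them.

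KRT5, the usual partner of KRT14, stayed at the detection limit with 0, 1 and 0 counts in SEM::mock and 3, 1 and 0 in SEM::EGR3, and was named after its values were seen. KRT15 was the reverse of its relatives with 13, 8 and 8 counts against 3, 4 and 5, below the filter, and was also named after its values were seen. Summed over the 27 genes, the other keratins took 0.283% to 0.355% of all keratin counts in SEM::mock and 11.8% to 12.7% in SEM::EGR3. The 5 keratins followed here summed to 1136 ± 35.6 CPM in SEM::mock and 623 ± 7.97 CPM in SEM::EGR3, and the other 27 to 3.51 ± 0.470 and 85.8 ± 3.55 CPM (SD, n = 3 each). The difference in CPM between the lines was larger for the first group than for the second.

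**Figure D4:**
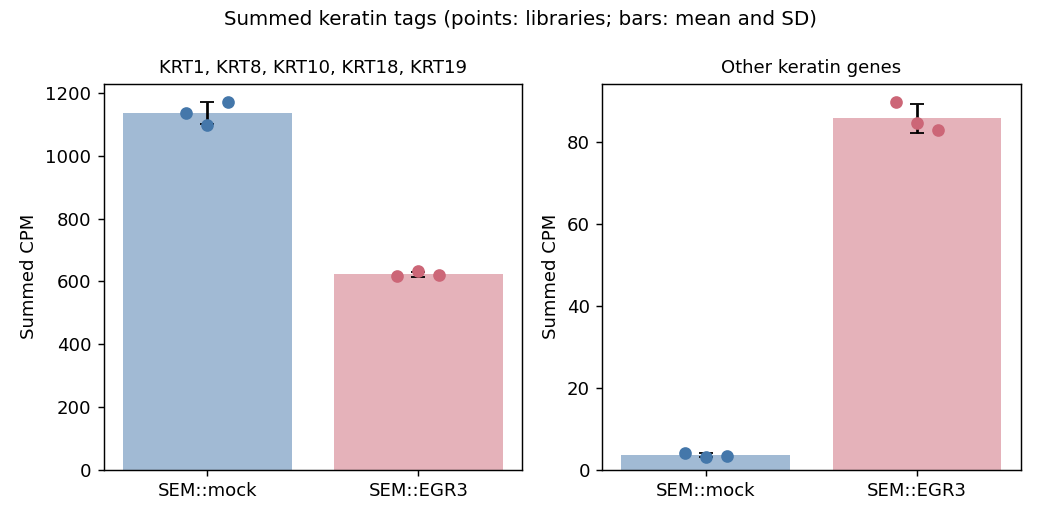
Summed CPM of KRT1, KRT8, KRT10, KRT18 and KRT19 (left) and of 27 other keratin genes (right) in each line, on axes of different scale. Points are libraries, bars are means with SD of 3 libraries. The left sum is lower and the right sum is higher in SEM::EGR3.

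Among 5 tested genes of other intermediate filaments, 2 were higher, 2 were lower and 1 was not called. The shares over all tested genes were 36.5% higher and 32.0% lower. DES, which encodes desmin of muscle, rose by 1.51 and NES, which encodes nestin, by 0.78 on the log2 scale. NEFH and INA, which encode neuronal filament proteins, had log2 fold changes of -1.60 and -0.91. Of the linkers that tie filaments to junctions and other fibres, 2 of 4 tested were lower (MACF1 -0.77 and DST -0.75) and PLEC, which encodes plectin, was not called (-0.0038).

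Of 18 tested genes of the nuclear lamina and lamin processing, 9 were higher, 5 were lower and 4 were not called. Their median log2 fold change was 0.06. Over all tested genes, 36.5% were higher and 32.0% were lower. With 1 library left out, 7 to 9 of the lamina genes were higher and 4 to 6 were lower. The increases were led by genes of the complex that joins the nucleus to the cytoskeleton. SYNE2 (nesprin 2) was counted 0, 0 and 1 times in the SEM::mock libraries and 134, 54 and 87 times in the SEM::EGR3 libraries. This was at least 15.7-fold higher than the floor, and SYNE2 passed the filter through SEM::EGR3 alone. SYNE3 rose by 2.42 and SUN2 by 2.02 on the log2 scale. LMNB2, the other B-type lamin gene, differed in the opposite direction from LMNB1 with a log2 fold change of -0.43, and EMD (emerin) was at -0.45 and TOR1A at -0.54. ZMPSTE24, the protease that matures prelamin A, was at -0.37, and LBR, the lamin B receptor gene, was not called (-0.08).

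In the cadherin and catenin list, 3 of 9 tested genes were higher, 5 were lower and 1 was not called. Over all tested genes, 36.5% were higher and 32.0% were lower. CDH2, which encodes N-cadherin, was counted 0, 0 and 2 times in the SEM::mock libraries and 1190, 558 and 763 times in the SEM::EGR3 libraries. This was at least 146-fold higher than the floor, through SEM::EGR3 libraries alone, while CDH1 stayed at the detection limit. NECTIN1 was counted 4, 4 and 1 times in the SEM::mock libraries and 66, 27 and 46 times in the SEM::EGR3 libraries. Of the catenins, CTNNB1 was at 0.21 and CTNND1 at -0.35, JUP (plakoglobin) was at -0.45, and CTNNA1 was not called (-0.11). VCL (vinculin) had a log2 fold change of -1.31, NECTIN2 of -1.11 and AFDN of -0.75.

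All 7 tested genes of epithelial junctions were lower, of 16 listed, where 32.0% of all tested genes were lower. Their median log2 fold change was -0.99. CLDN7, a tight junction claudin, was counted 42, 38 and 33 times in the SEM::mock libraries and 22, 10 and 15 times in the SEM::EGR3 libraries, a log2 fold change of -2.19 (edgeR adjusted p = 9.29e-09). The desmosome genes PKP2 and DSC2 were at -1.60 and -1.34. The other 9 listed genes were below the filter.

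Among regulators of epithelial and mesenchymal state, 4 of 5 tested genes were higher and 1 was lower. The shares over all tested genes were 36.5% higher and 32.0% lower. With DESeq2, 3 of the regulators were higher, and 3 to 4 were higher with 1 library left out. TWIST1 was counted 276, 278 and 236 times in the SEM::mock libraries and 2142, 953 and 1220 times in the SEM::EGR3 libraries, a log2 fold change of 1.51. SNAI1 rose by 0.69 and ZEB2 by 0.23 on the log2 scale, and ZEB1 was at -0.99. ESRP1, an epithelial splicing factor, was absent from the SEM::mock counts and reached 42, 28 and 23 in the SEM::EGR3 libraries, at least 5.56-fold higher than the floor, so it too passed the filter through SEM::EGR3 alone. SNAI2 had 0 counts in all SEM::mock libraries and 5, 0 and 1 in SEM::EGR3.

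Markers of other cell types were summed in each library beside these differences. The 10 simple epithelium markers summed to 14.4 to 18.3 CPM in SEM::mock and 14.5 to 17.6 CPM in SEM::EGR3. These similar sums hide opposite directions, since of 3 tested members ESRP1 was higher in SEM::EGR3, CLDN7 was lower and 1 was not called. The 9 listed keratinocyte markers were at 0.176 to 0.501 CPM against 9.24 to 12.5 CPM. Only KRT9 and KRT14 were tested, both higher and both through SEM::EGR3 alone, and 7 were below the filter. The 10 fibroblast markers were at 16.03 to 21.03 CPM against 165 to 168 CPM. Among 5 tested fibroblast markers 4 were higher and 1 was lower, and 5 were below the filter. Over all tested genes, 36.5% were higher and 32.0% were lower. Of 9 myeloid markers, the sum was 291 to 301 CPM against 231 to 233 CPM, and its members went opposite ways. LYZ and CD33 were lower in SEM::EGR3, with log2 fold changes of -1.85 and -1.37, CEBPA and ITGAM were higher, at 3.35 and 1.67, and the other 5 were below the filter. The keratinocyte list shares genes such as KRT9 and KRT14, and the simple epithelium list genes such as ESRP1 and CLDN7, with the lists above. The part of other cell types, or of another cell background, in these differences was not tested.

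For each tested gene, the 2 genes with the most similar profile over the 6 libraries were found among 11502 genes by Pearson's r of log2 CPM. For KRT18 these were HOXB3 and PPP1R26, for VIM CDC42EP1 and PHLDA2, for EPCAM NEFH and PARK7, for KRT19 EFCAB2 and LSM4, for LMNA RABGAP1L and RPS27A, for KRT8 ARHGAP25 and CEP20, for KRT10 EXOSC9 and USP53, and for LMNB1 KIFC1. The r values of these genes lay between 0.998 and 1.000. With 2 lines, r mainly reflects the shared step between them, and 11 genes for LMNB1 and up to 689 genes for VIM had r above 0.99.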

How the data were processed

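RNA of 3 biological replicates each of SEM::mock and SEM::EGR3 was measured by MACE-Seq. The authors deposited raw counts per gene and library, and per the labels reads were demultiplexed with bcl2fastq, aligned with Bowtie2 to GRCh38 and counted with HTSeq. The annotation, versions and strand setting are not given in the sources used here. The table also holds scaled values and the authors' own comparison, which were not used. The number of unmatched columns was 0. The headings spell EGR3 as ERG3 and were matched by the titles.

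Genes were filtered with filterByExpr (min.count 10), scaled by TMM and tested with glmQLFit and glmQLFTest of edgeR 4.0.16 in R 4.3.3 over all 6 libraries, without a further term. The SE is the log2 fold change divided by the square root of F. Calls have an adjusted p under 0.05. The procedure was tested on simulated data. Depth was 5286115 to 15106018 counts per library, and replicates differed by more than counting noise. At 3 counts or fewer in every library of a line a gene is at the detection limit, and bounds cover counting error only.

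All 10 genes are named, with EGR3, their pseudogene and antisense rows, a fixed set of lamina and junction genes, up to 3 rises and 3 falls per list (non-overlapping libraries, a mean of at least 10 counts) and, per tested gene, the 2 most similar genes with a mean of at least 50 counts (log2 of CPM plus 0.5). Exceptions are named as such, and some genes that the rule names are left out here. The genes, lists and tests were chosen with earlier results of these data known. Positions are from GENCODE 29 (GRCh38), which holds 97.0% of the gene identifiers. Alternatives were DESeq2 1.42.0, RLE factors, no factors, no filter, the replicate number as a block and leaving out each library.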

Additional observations from a re-analysis of the deposited data

How the results depend on the processing

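The log2 fold change of each of the 8 tested genes was recomputed under 11 alternatives (DESeq2, RLE size factors, no normalization factors, no filter, the replicate block and leaving out each of the 6 libraries). All 88 values kept their direction and their side of the threshold, with a largest adjusted p of 0.000519. KRT18 lay between -1.89 and -1.76 and LMNB1 between 0.31 and 0.45 when 1 library was left out, and 7 genes were lower in every alternative. Without the filter, 2 in place of 1 of the 10 genes were higher, through KRT1, and 5 in place of 1 of the other type II keratins were higher, 1 of the other type I keratins was lower and 1 epithelial junction gene was higher. With 1 library left out, the other type II keratins that were higher numbered 1 to 2, the other type I keratins that were lower 0 to 1 and the epithelial junction genes that were higher 0 to 1. The larger numbers came without an SEM::mock library, where more genes passed the filter. Without normalization factors the median of all genes moved from 0.03 to 0.11, and without the filter to 0.22. Same-numbered libraries deviated from their group means with correlations of -0.11, -0.06 and -0.03, so no shared deviation was seen. Whether same-numbered libraries were prepared together is not given in the labels. With the replicate block, 7 of the genes were lower and 1 was higher, and no call of the 8 genes changed. Depth limits KRT1 and CDH1, whose levels in SEM::mock lie at the detection limit.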
